A study of Homo sapiens with 6 samples.

Results

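SR proteins and hnRNPs are the 2 large families of RNA-binding proteins that decide which exons enter an mRNA, and their mRNA levels were compared here between STAT5B knockout and wild-type HEK293 cells. The set holds every protein-coding gene whose symbol starts with SRSF or HNRNP, plus TRA2A, TRA2B, PTBP1, PTBP2, RBFOX2, RBM39, U2AF1 and U2AF2. By this rule 46 of the 60609 genes in the deposited files are members: 12 SRSF genes, 26 HNRNP genes and the 8 others. Another 139 genes with an SRSF or HNRNP symbol are not protein-coding and were left out, most of them pseudogene copies. Of the members, 42 had enough counts to be tested.

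SR proteins carry a domain rich in arginine and serine and, bound to exonic enhancers, mostly favour the use of nearby splice sites. HnRNPs coat nascent transcripts and often act the other way, silencing exons or hiding cryptic ones, and many members of both families also act in mRNA export, stability or translation. Many of these genes tune their own output by splicing an exon that carries a premature stop codon into their mRNA, so that both the level and the isoform mix of their transcripts are regulated.

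The study compared 3 STAT5B knockout libraries with 3 wild-type libraries of HEK293, a human embryonic kidney cell line. CRISPR/Cas9 was used for the knockout, and the labels describe clones carrying mutations on both alleles of STAT5B, a transcription factor activated by JAK kinases. The labels also use the name GS for knockout clones without explaining it, and do not say how many clones the 3 libraries represent or whether they were separate cultures, so the p-values cover the spread among these libraries, which may be technical. Both groups were grown in DMEM with fetal bovine serum, sample names of both groups contain the unexplained word Sham, and mRNA libraries were made with a KAPA kit.

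The knockout libraries held 17494958 to 21099813 estimated counts and the wild-type libraries 17686407 to 20279181. STAT5B mRNA stood at 63.1, 61.8 and 60.5 CPM (counts relative to the scaled library size) in the knockout, against 70.1, 64.6 and 69.4 CPM in the wild type. Its log2 fold change was -0.14 (SE 0.047, edgeR quasi-likelihood test with Benjamini-Hochberg adjustment, adjusted p = 0.0468), and this call was lost under most other settings. Where the mutations lie relative to the counted reads is not given, so the mRNA level does not check the knockout. The mRNAs NEFL, NEFM, VIM, KRT8, KRT18 and PAX2, which HEK293 cells are known to express, were all detected, with a summed level of 864 to 889 TPM (abundance per transcript length and library) in the knockout and 989 to 1014 TPM in the wild type. Of the defining markers of other cell types, PTPRC, CD3E and CDH5 were at 0 in all 6 libraries, and the haematopoietic markers summed to 0.991 to 1.83 TPM, the endothelial ones to 0 to 0.268 TPM and the hepatocyte ones to 0 to 0.591 TPM.

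Among the 42 tested members, 9 rose and 4 fell in the knockout and 29 did not pass the threshold of an adjusted p under 0.05. The members that rose make up 21.4% of those tested, beside 12.1% of all 15958 genes tested, and those that fell 9.52%, beside 11.4% of all genes. In either direction 23.4% of all genes passed. The changes were small. The called members differed by 1.07-fold to 1.25-fold, with a median of 1.11-fold, whereas the median over all called genes was 1.19-fold. Over the tested members the median log2 fold change was 0.013, beside 0.0063 over all genes, and the median size of the change in either direction was 0.076, beside 0.14 over all genes. The CPM of the 2 groups did not overlap for 10 members on the higher side and 6 on the lower side, beside 19.9% and 18.7% of all genes. On the TPM scale the balance was the other way, with 4 members higher and 12 lower without overlap, beside 9.78% and 23.7% of all genes.

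The division between higher and lower members depends on how the counts are scaled. With offsets that remove each library's trend with gene length and GC content, an alternative chosen after seeing the data, 2 members rose and 7 fell in place of 9 and 4. Over all genes these offsets gave 10.2% higher and 10.5% lower. With effective-length offsets 3 members rose and 2 fell, beside 5.58% and 5.28% of all genes. By limma on log2(TPM + 1) 2 rose and 6 fell, beside 3.06% and 7.11% of all genes, on a scale where the median over all genes itself lay at -0.0587. HNRNPC rose and HNRNPH2 and HNRNPA3 fell under all of these. Against a change of 1.2-fold edgeR's test called 0 members, beside 295 of all 15958 genes, and 0 members at an unadjusted p under 0.05. DESeq2 and limma-voom, tested against no change, called 13 members each, beside 3038 and 3645 of all 15958 genes.

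**Figure D1:**
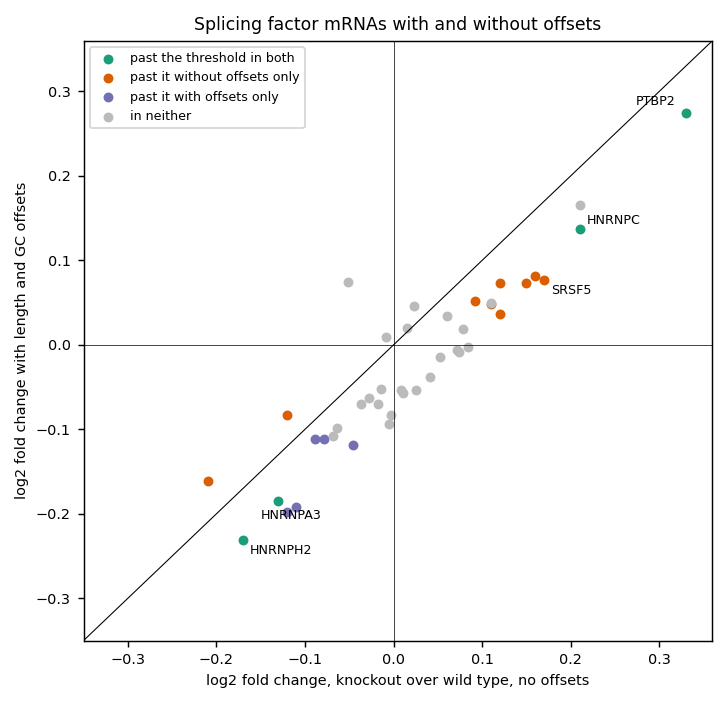
Log2 fold change of each tested member, STAT5B knockout over wild type, without offsets (horizontal axis) and with length and GC offsets (vertical axis), coloured by which fit placed it past an adjusted p of 0.05. Most points lie below the diagonal, and HNRNPC, PTBP2, HNRNPH2 and HNRNPA3 passed in both.

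The summed levels of the families overlapped between the groups. All members together summed to 19675, 19983 and 19283 TPM in the knockout, against 19894, 20211 and 20007 TPM in the wild type, which is 1.93% to 2.0% and 1.99% to 2.02% of all transcripts. The SRSF genes summed to 3718, 3868 and 3902 TPM in the knockout, against 3912, 3882 and 3846 TPM in the wild type. The HNRNP genes summed to 14006, 14155 and 13393 TPM in the knockout and to 13901, 14326 and 14121 TPM in the wild type. In each of these sums the knockout and wild-type ranges overlapped.

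The levels of single members covered a wide range. HNRNPA2B1, which binds AG-rich RNA, was the most abundant, at 2099 ± 134 TPM in the knockout and 2094 ± 52.1 TPM in the wild type (SD, n = 3 each). HNRNPA1, an exon silencer that also shuttles mRNA out of the nucleus, followed at 1525 ± 61.4 TPM in the knockout and 1572 ± 25.3 TPM in the wild type. HNRNPH1, HNRNPC, HNRNPU and HNRNPK came next. At the other end stood PTBP2 at 31.3 ± 8.0 TPM in the knockout and 25.5 ± 2.46 TPM in the wild type, and SRSF12 at 11.5 ± 0.400 TPM in the knockout and 10.7 ± 1.04 TPM in the wild type. In the order of mean levels many neighbours did not differ beyond their spread, among them HNRNPU and HNRNPK, SRSF11 and TRA2B, and RBM39 and HNRNPH3. Of the 4 members below the test's minimum, the HNRNPC copies HNRNPCL2, HNRNPCL3 and HNRNPCL4 had a count of 0 in every library, which allows up to 3 counts per library by counting error alone. HNRNPCL1 had estimated counts of 9.03, 4.44 and 9.49 in the knockout, against 2.01, 4.53 and 4.12 in the wild type.

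**Figure D2:**
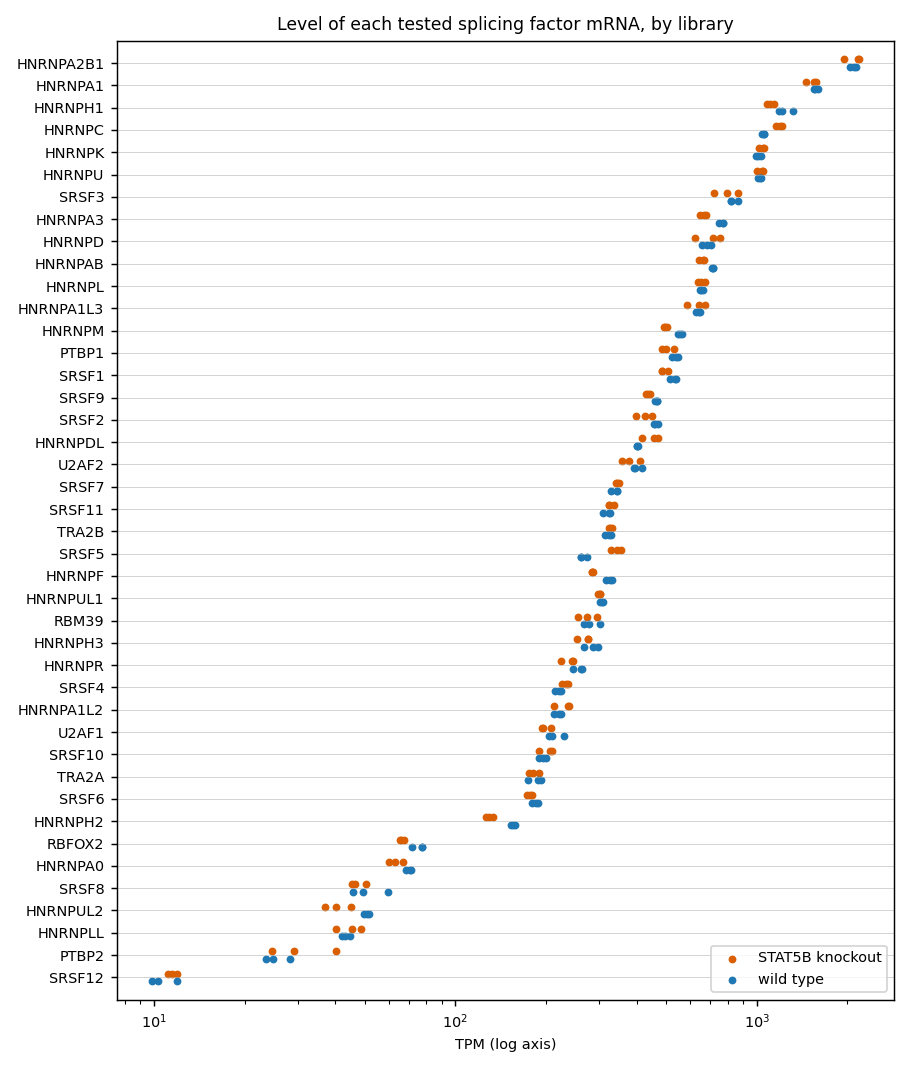
Level of each tested member in TPM (log axis) in the 3 STAT5B knockout and 3 wild-type libraries, ordered by mean level. The levels run from about 11.1 TPM for SRSF12 to 2096 TPM for HNRNPA2B1, and the 2 groups lie close together at every level.

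Among the 12 SR protein genes, 2 rose (16.7%), 0 fell and 10 did not pass, beside 12.1% higher and 11.4% lower over all genes. Their median log2 fold change was 0.0028. The 0 lower calls came with 0 SRSF genes lower and 4 higher at an unadjusted p under 0.05 in edgeR. DESeq2 and limma-voom called 0 lower as well. At an unadjusted p under 0.05, however, 5 SRSF genes were lower and 3 higher with length and GC offsets. On log2(TPM + 1) 3 were lower and 1 higher, and without knockout replicate 3, 1 was lower and 5 higher. The shares of all genes at this unadjusted threshold were not counted. SRSF5, also called SRp40, a classical SR protein with 2 RNA recognition motifs, had 195, 212 and 194 CPM in the knockout, against 180, 181 and 175 CPM in the wild type. Every knockout library lay above every wild-type library, and the log2 fold change was 0.17 (SE 0.038, edgeR adjusted p = 0.00545). On the TPM scale, which divides by transcript length, SRSF5 stood at 345, 355 and 329 TPM in the knockout and at 261, 273 and 261 TPM in the wild type. The log2 difference was 0.37 on log2(TPM + 1), 0.44 with effective-length offsets, and 0.077 with length and GC offsets, where the call was lost (adjusted p = 0.132).

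SRSF4, or SRp75, a longer SR protein, had 317, 311 and 296 CPM in the knockout, against 284, 285 and 281 CPM in the wild type. Every knockout value exceeded every wild-type value, and the log2 fold change was 0.12 (SE 0.033, edgeR adjusted p = 0.0165). SRSF4 lies on chromosome 1, where the median log2 fold change over 1574 tested genes was 0.149. Its 50 nearest tested genes had a median of 0.0325, with 10 called higher and 9 lower. The part of this regional difference in the SRSF4 value was not tested. The call was lost without knockout replicate 1 (adjusted p = 0.0737) and without wild-type replicates 1, 2 or 3 (0.0551, 0.0526 and 0.0602), with the log2 fold change between 0.099 and 0.12. It was also lost with effective-length offsets (0.14, adjusted p = 0.0542), with length and GC offsets (0.073, adjusted p = 0.0968) and on log2(TPM + 1) (0.071, adjusted p = 0.264). The closest relative of both, SRSF6, had a log2 fold change of -0.014 (adjusted p = 0.811).

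The other SR protein genes did not pass. SRSF12, the scarcest of the tested members, had 16.5, 18.1 and 17.8 CPM in the knockout, against 14.7, 15.5 and 15.3 CPM in the wild type, with a log2 fold change of 0.21 and an adjusted p of 0.0689. SRSF7, an adaptor of mRNA export, had 252, 268 and 259 CPM in the knockout, against 242, 251 and 243 CPM in the wild type, a log2 fold change of 0.084 and an adjusted p of 0.0868. The groups did not overlap in CPM for either gene. SRSF3, the export adaptor most like SRSF7, lay at -0.0048, SRSF1, the founding member of the family, at -0.037, and SRSF9, its closest relative, at -0.0026. SRSF2, which binds both G-rich and C-rich enhancers, lay at -0.064 and its copy SRSF8, which has a gene of its own on chromosome 11, at -0.068. The CPM of SRSF8 did not overlap either, on the lower side. They were 73.1, 71.1 and 73.4 CPM in the knockout, against 75.2, 74.0 and 78.7 CPM in the wild type. In TPM, SRSF1, SRSF2 and SRSF9 were lower in the knockout without overlap, as were 23.7% of all genes. SRSF4 and SRSF5 were higher without overlap, as were 9.78% of all genes. SRSF10, a splicing repressor when dephosphorylated, lay at 0.0083 and SRSF11 at 0.078.

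**Figure D3:**
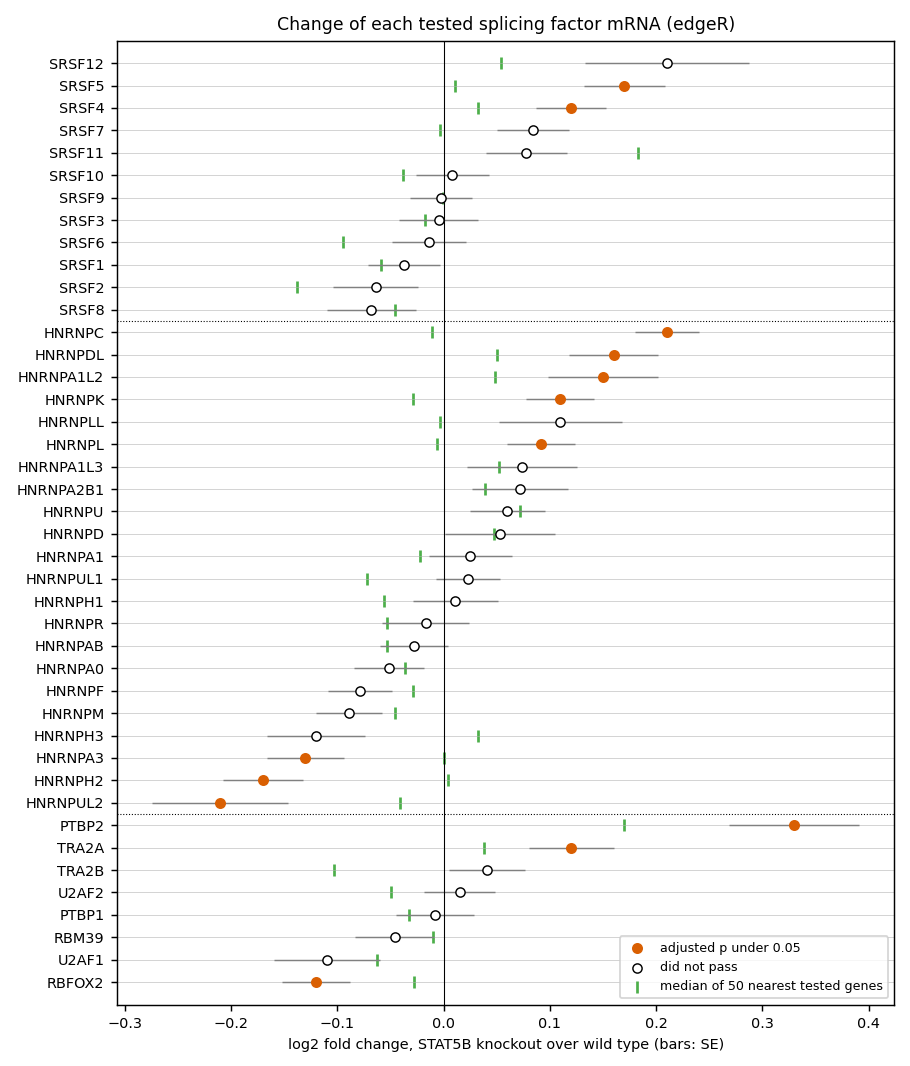
Log2 fold change with its standard error for each tested member, STAT5B knockout over wild type, grouped as SRSF genes (top), HNRNP genes and other members (bottom), with the median of the 50 nearest tested genes on the same chromosome marked in green. Filled points passed an adjusted p of 0.05, and the members lie between -0.21 and 0.33.

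Among the 22 tested hnRNP genes, 5 rose (22.7%), 3 fell (13.6%) and 14 did not pass, beside 12.1% higher and 11.4% lower over all genes. Their median log2 fold change was 0.024. HNRNPC (ENSG00000092199, chr14:21209136-21269494 on GRCh38) binds uridine tracts and keeps exons that arise from Alu repeats out of mRNA. It had 1080, 1094 and 1058 CPM in the knockout, against 922, 941 and 927 CPM in the wild type. The 3 knockout libraries lay well above the 3 wild-type libraries, and the log2 fold change was 0.21 (SE 0.030, edgeR adjusted p = 1.89e-04), the smallest p of any member. The 50 nearest tested genes had a median log2 fold change of -0.0112. Leaving out any library kept the call, with a log2 fold change of 0.20 to 0.22, and so did every other setting run except the test against a 1.2-fold change.

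HNRNPH2, HNRNPH1, HNRNPH3 and HNRNPF encode related proteins that bind runs of guanines. HNRNPH2, on the X chromosome, had 180, 191 and 172 CPM in the knockout, against 201, 208 and 203 CPM in the wild type. No knockout library reached the wild-type range, and the log2 fold change was -0.17 (SE 0.038, edgeR adjusted p = 0.00461), a call kept under every leave-one-out and every scaling but not against a 1.2-fold change. The far more abundant HNRNPH1 had 957, 1008 and 893 CPM in the knockout and 937, 964 and 935 CPM in the wild type, with a log2 fold change of 0.011 (adjusted p = 0.877). Its TPM differed more, at 1110, 1142 and 1080 TPM in the knockout, against 1212, 1317 and 1185 TPM in the wild type. Those groups did not overlap, yet limma on log2(TPM + 1) did not pass (-0.16, adjusted p = 0.0772), and the sign of the HNRNPH1 difference thus depends on the scale. HNRNPF at -0.079 (adjusted p = 0.0766) and HNRNPH3 at -0.12 (adjusted p = 0.0845) lay just outside the threshold, and both passed with length and GC offsets, at -0.11 and -0.20.

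HNRNPA3, an A/B-type hnRNP that binds single-stranded telomeric repeats as well as RNA, had 971, 995 and 910 CPM in the knockout, against 1033, 1062 and 1058 CPM in the wild type. The knockout values all lay below the wild-type range, with a log2 fold change of -0.13 (SE 0.036, edgeR adjusted p = 0.0162). It was lost without wild-type replicate 2 (adjusted p = 0.0703) or 3 (0.0543), at -0.13 each time. Its relatives did not pass: HNRNPA2B1 lay at 0.072 (adjusted p = 0.279), HNRNPA1 at 0.025 (0.705), HNRNPA0 at -0.051 (0.292) and HNRNPAB at -0.028 (0.574). HNRNPA2B1 had 2044, 2123 and 1838 CPM in the knockout, against 1848, 1945 and 1918 CPM in the wild type, and knockout replicate 3 was the lowest of all 6. Without that library HNRNPA2B1 passed at 0.13 (adjusted p = 0.00774), while with length and GC offsets its value was -0.0065. HNRNPA1 had 1361, 1425 and 1279 CPM in the knockout and 1302, 1329 and 1366 CPM in the wild type, so that the groups overlapped.

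HNRNPDL, a paralogue of the AU-rich element binding protein HNRNPD, had 397, 400 and 355 CPM in the knockout, against 340, 344 and 348 CPM in the wild type. The groups did not overlap, though knockout replicate 3 lay only just above the wild type, and the log2 fold change was 0.16 (SE 0.042, edgeR adjusted p = 0.0133). The call was lost without knockout replicates 1 or 2 (adjusted p = 0.0673 and 0.0619) and without wild-type replicates 1 or 2 (0.0588 and 0.0510), at 0.13 to 0.16. It was also lost with length and GC offsets (0.081, adjusted p = 0.136) and on log2(TPM + 1) (0.15, adjusted p = 0.0906). HNRNPD, a gene near it on chromosome 4, had 558, 589 and 494 CPM in the knockout and 504, 539 and 540 CPM in the wild type (0.053, adjusted p = 0.515).

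HNRNPK, which binds cytosine-rich RNA and DNA through KH domains, had 1198, 1261 and 1232 CPM in the knockout, against 1113, 1154 and 1144 CPM in the wild type. All knockout values lay above the wild-type range, with a log2 fold change of 0.11 (SE 0.032, edgeR adjusted p = 0.0189). It was lost without knockout replicate 2 (0.096, adjusted p = 0.0686) or wild-type replicate 1 (0.097, adjusted p = 0.106), with effective-length offsets (0.11, adjusted p = 0.0766), with length and GC offsets (0.048, adjusted p = 0.285) and on log2(TPM + 1) (0.04, adjusted p = 0.499). HNRNPL, which binds CA repeats, had 682, 656 and 687 CPM in the knockout, against 624, 638 and 639 CPM in the wild type. With no overlap between groups and a log2 fold change of 0.092 (SE 0.032), HNRNPL passed most narrowly of all members (edgeR adjusted p = 0.0496). Its call was lost when any single library other than knockout replicate 2 was left out, with adjusted p of 0.0871 to 0.195, and with RLE scaling (0.0652), the filter of 1 CPM in 3 libraries (0.0521) and both kinds of offset (0.16 and 0.241). Its log2 difference on log2(TPM + 1) was 0.0066. Its paralogue HNRNPLL, known for the splicing of CD45 in lymphocytes, lay at 0.11 (adjusted p = 0.207). Just outside the threshold stood HNRNPM, which binds GU-rich RNA, at -0.089 (adjusted p = 0.0503), with 593, 617 and 605 CPM in the knockout, against 648, 639 and 644 CPM in the wild type. HNRNPM passed on the lower side with RLE scaling, DESeq2, limma-voom and the filter of 1 CPM in 3 libraries (adjusted p = 0.00918 to 0.0453), with length and GC offsets (-0.11, adjusted p = 0.0156) and on log2(TPM + 1) (-0.16, adjusted p = 0.0204). Leaving out knockout replicate 2 or 3 also let it pass (adjusted p = 0.0457 and 0.042).

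HNRNPU, a nuclear scaffold protein that binds chromatin and RNA, has the relatives HNRNPUL1 and HNRNPUL2. HNRNPUL2, linked to the response to DNA breaks, had 138, 129 and 111 CPM in the knockout, against 149, 137 and 152 CPM in the wild type. Here the groups overlapped, since knockout replicate 1 lay above wild-type replicate 2. Its log2 fold change was -0.21 (SE 0.064, edgeR adjusted p = 0.0278), lost without knockout replicates 2 or 3 (adjusted p = 0.0512 and 0.0704, with -0.13 without replicate 3), without wild-type replicates 1 or 3 (0.0886 and 0.108), in DESeq2 (0.112), with effective-length offsets (0.0514) and with length and GC offsets (0.0747). HNRNPU had 2033, 2083 and 1910 CPM in the knockout, against 1903, 1959 and 1918 CPM in the wild type, which overlapped (0.060, adjusted p = 0.245). Without knockout replicate 3 it passed at 0.094 (adjusted p = 0.0234). HNRNPUL1 lay at 0.023 and HNRNPR, a relative of SYNCRIP, at -0.017, and neither passed.

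**Figure D4:**
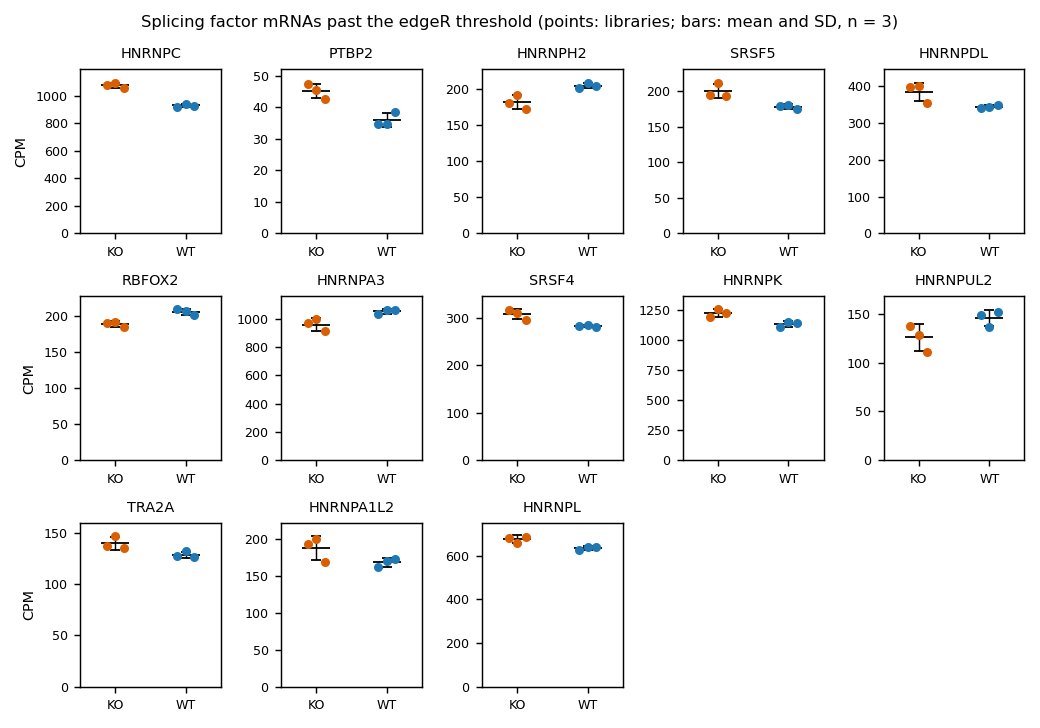
CPM of the 13 members past the edgeR threshold in each STAT5B knockout (KO) and wild-type (WT) library, with mean and SD (n = 3 each) and axes that start at 0. Differences are between 1.07-fold and 1.25-fold, and the groups overlap for HNRNPUL2 and HNRNPA1L2.

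Of the 8 other regulators, 2 rose (25.0%), 1 fell (12.5%) and 5 did not pass, beside 12.1% higher and 11.4% lower over all genes. PTBP2, the neuronal paralogue of PTBP1 whose mRNA PTBP1 is known to keep low in non-neuronal cells, had the highest fold change of the set. It had 47.3, 45.4 and 42.7 CPM in the knockout, against 34.7, 34.6 and 38.6 CPM in the wild type. The groups did not overlap, and the log2 fold change was 0.33 (SE 0.061, edgeR adjusted p = 0.00155), kept when any library was left out. PTBP2 lies on chromosome 1 (chr1:96721665-96823738), where the median log2 fold change over 1574 tested genes was 0.149. Its 50 nearest tested genes had a median of 0.17, with 18 of them called higher, and the part of this regional difference in the PTBP2 value was not tested. On the TPM scale the PTBP2 groups overlapped, at 40.2, 29.1 and 24.7 TPM in the knockout and 23.5, 24.8 and 28.3 TPM in the wild type, and neither effective-length offsets (0.35, adjusted p = 0.194) nor log2(TPM + 1) (0.26, adjusted p = 0.341) kept the call. Its deposited average transcript length differed between the libraries, at 2111, 2659 and 3062 bases in the knockout and 2772, 2619 and 2566 bases in the wild type. PTBP1 itself, at 736, 732 and 794 CPM in the knockout and 778, 744 and 753 CPM in the wild type, lay at -0.0082 (adjusted p = 0.902).

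RBFOX2, which binds the element UGCAUG near alternative exons, had 191, 192 and 185 CPM in the knockout, against 210, 207 and 202 CPM in the wild type. The groups did not overlap, and the log2 fold change was -0.12 (SE 0.032, edgeR adjusted p = 0.0134), lost without wild-type replicates 1 or 2 (adjusted p = 0.0624 and 0.0542), with effective-length offsets (-0.12, adjusted p = 0.123) and with length and GC offsets (-0.083, adjusted p = 0.07). TRA2A, which binds GAA-rich exonic enhancers, had 137, 147 and 135 CPM in the knockout, against 127, 132 and 126 CPM in the wild type. Knockout values all exceeded wild-type values, and the log2 fold change was 0.12 (SE 0.040, edgeR adjusted p = 0.0389). That call was lost without any single library but knockout replicate 3 (adjusted p = 0.0511 to 0.176) and in DESeq2 (0.0624), and with both kinds of offset (0.045 with effective length, 0.037 with length and GC). On log2(TPM + 1) the TRA2A difference was -0.024, so its sign turned. Its paralogue TRA2B lay at 0.041 (adjusted p = 0.452). U2AF2, which binds the polypyrimidine tract, lay at 0.015 and did not pass under any setting run. RBM39, its relative that the drug indisulam marks for degradation, lay at -0.046 (adjusted p = 0.413) and passed with length and GC offsets alone (-0.12, adjusted p = 0.0153).

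Reads of near-identical genes limit some of these values. U2AF1, which reads the AG at the end of introns, has a copy, U2AF1L5, whose coding sequence matched in 723 of 723 bases, so reads from it cannot be assigned to one of them. U2AF1 had 127, 131 and 123 CPM in the knockout, against 148, 137 and 126 CPM in the wild type, with a log2 fold change of -0.11 (adjusted p = 0.149). It passed on the lower side with length and GC offsets (-0.19, adjusted p = 0.014) and without wild-type replicate 3 (-0.16, adjusted p = 0.032), and stood at -0.05 without wild-type replicate 1. Its share of the summed counts of both genes was 50.5%, 50.5% and 53.2% in the knockout and 56.7%, 50.4% and 47.4% in the wild type. The sum of both had a log2 fold change of -0.10 (SE 0.040, edgeR adjusted p = 0.0776), which did not pass.

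HNRNPA1L2 and HNRNPA1L3 are copies of HNRNPA1, and the HNRNPA1L2 transcript has no intron. HNRNPA1L2 had 193, 200 and 169 CPM in the knockout, against 162, 170 and 173 CPM in the wild type. The groups overlapped through knockout replicate 3, and the log2 fold change was 0.15 (SE 0.052, edgeR adjusted p = 0.0431). It was lost without any single library but knockout replicate 3 (adjusted p = 0.0612 to 0.195) with values of 0.10 to 0.17, in limma-voom (adjusted p = 0.0529), with effective-length offsets (0.14, adjusted p = 0.162), with length and GC offsets (0.073, adjusted p = 0.29) and on log2(TPM + 1) (0.066, adjusted p = 0.454). HNRNPA1L3 had 526, 563 and 467 CPM in the knockout, against 479, 498 and 501 CPM in the wild type (0.074, adjusted p = 0.34). The coding sequence of HNRNPA1L2 matched that of HNRNPA1 in 948 of 963 bases, and 27.3% of its stretches of 75 bases were identical to it. For HNRNPA1L3 the match was 957 of 963 bases, and 58.0% of such stretches were identical. Counts on HNRNPA1L2 and HNRNPA1L3 can thus include reads of HNRNPA1 and the reverse, and the value of each alone is uncertain. All 76 annotated copies of HNRNPA1 together took 44.3% to 45.5% of the counts of HNRNPA1 and its copies. The 16 copies of HNRNPA3 took 9.03% to 11.7% and the 9 copies of HNRNPC 6.19% to 6.55%. With the copies added to each parent gene the log2 fold change was 0.21 for HNRNPC (adjusted p = 1.74e-04), -0.12 for HNRNPA3 (adjusted p = 0.0396) and 0.034 for HNRNPA1 (adjusted p = 0.581).

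A second readout, which the choice of members did not use, is the average transcript length that the files give for each gene and library. It differed between libraries for 29.1% of genes, as a length weighted by the estimated share of each isoform does, and it varied for 38 members. None of the members passed limma's test on log2 length or any alternative form of it. In that test 1 of 13158 genes passed (0.0076%), the collagen gene COL5A2. At an unadjusted p under 0.05, 7 members were shorter in the knockout and 0 longer, beside 4.99% and 2.7% of all genes. The length ranges of the groups did not overlap on the shorter side for 10 members, which is 26.3% beside 8.15% of all genes, and on the longer side for 1, beside 4.64%.

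SRSF5 had the largest length difference of the members. Its average transcript length was 1072, 1093 and 1140 bases in the knockout, against 1367, 1307 and 1321 bases in the wild type. All 3 knockout libraries lay below all 3 wild-type libraries, and the knockout length was 0.827 times that of the wild type (log2 difference -0.27, SE 0.032, limma unadjusted p = 3.69e-04, adjusted p = 0.281, and 0.176 to 0.587 under the alternatives). GENCODE release 29 lists 8 protein-coding SRSF5 transcripts of 526 to 2815 bases, 8 with a retained intron of 546 to 3044 bases and 1 subject to nonsense-mediated decay of 2057 bases. The files give no value per transcript, so which of these differ cannot be read from them.

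Among SRSF genes the length ranges did not overlap for 5 of 12, all shorter in the knockout (SRSF2, SRSF4, SRSF5, SRSF10 and SRSF11), beside 8.15% of all genes. The log2 difference was below 0 for 11 of 12, beside 55.3% of all genes. SRSF10 averaged 2192, 2020 and 2060 bases in the knockout, against 2312, 2318 and 2195 bases in the wild type (-0.12, limma adjusted p = 0.604). SRSF11 averaged 2096, 2100 and 2081 bases in the knockout, against 2184, 2163 and 2163 bases in the wild type (-0.053, limma adjusted p = 0.499). Outside the SR proteins HNRNPH3 averaged 1395, 1422 and 1420 bases in the knockout, against 1559, 1498 and 1522 bases in the wild type (-0.11, limma adjusted p = 0.356). HNRNPDL averaged 1469, 1486 and 1525 bases in the knockout, against 1576, 1579 and 1586 bases in the wild type (-0.082, limma adjusted p = 0.426). HNRNPC, HNRNPU and TRA2B were also shorter without overlap, by 0.046, 0.044 and 0.061 on the log2 scale. HNRNPH1 was the member with longer transcripts without overlap, at 1513, 1507 and 1484 bases in the knockout, against 1461, 1375 and 1466 bases in the wild type (0.067, limma adjusted p = 0.706).

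**Figure D5:**
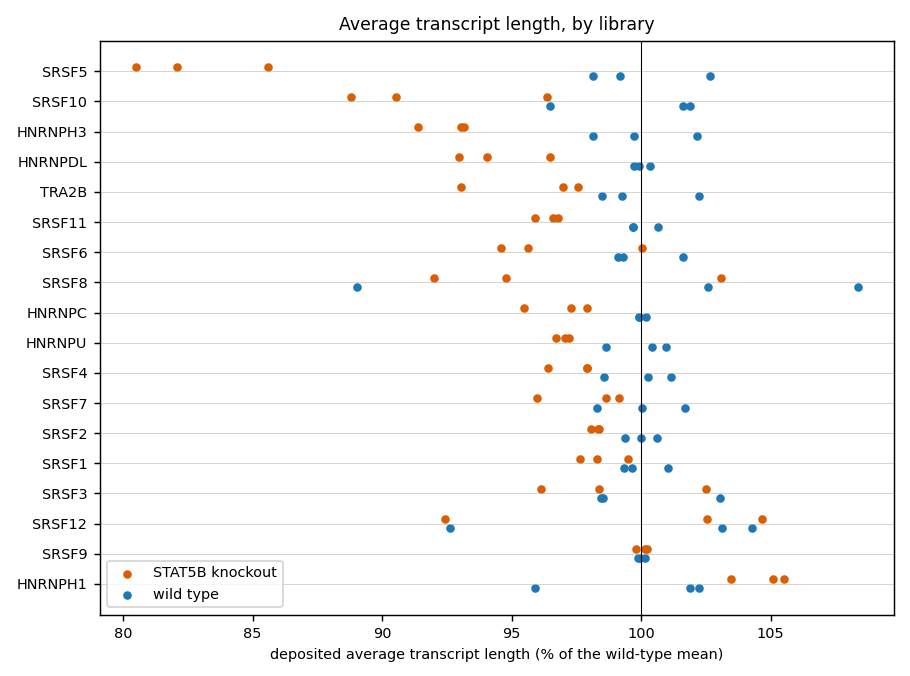
Average transcript length of the SRSF genes and of the other members whose groups do not overlap, as a percentage of the wild-type mean, in the 3 STAT5B knockout and 3 wild-type libraries. SRSF5 stands apart, with a knockout length 0.827 times that of the wild type, and HNRNPH1 lies on the longer side.

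STAT5 dimers are known to bind the palindrome TTCNNNGAA, in which N is any base, and it reads the same on both strands. RefSeq promoter windows of 300 bases (250 before to 50 after the start, GRCh38.p14) were at hand for 39 members, in 54 windows. The palindrome occurred in the windows of 2 members, HNRNPR and HNRNPH1, which is 3.7% of member windows beside 7.66% of all 35116 promoters. Neither gene passed the test of its level, at -0.017 and 0.011 on the log2 scale. None of the windows of called members held it, and RBFOX2 and TRA2A had no entry. The windows are shown for the 2 members with the palindrome and for HNRNPC and PTBP2, the members with the smallest p and the highest fold change, with TTCNNNGAA and the box TATAAA in capitals.
HNRNPR, chr1:23344235-23344534, minus strand: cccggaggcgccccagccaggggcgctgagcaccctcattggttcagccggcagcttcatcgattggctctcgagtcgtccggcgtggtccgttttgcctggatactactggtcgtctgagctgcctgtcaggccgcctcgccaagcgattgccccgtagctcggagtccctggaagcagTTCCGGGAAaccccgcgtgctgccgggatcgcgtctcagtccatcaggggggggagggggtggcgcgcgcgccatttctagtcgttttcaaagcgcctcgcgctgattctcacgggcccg
HNRNPH1, chr5:179623352-179623651, minus strand: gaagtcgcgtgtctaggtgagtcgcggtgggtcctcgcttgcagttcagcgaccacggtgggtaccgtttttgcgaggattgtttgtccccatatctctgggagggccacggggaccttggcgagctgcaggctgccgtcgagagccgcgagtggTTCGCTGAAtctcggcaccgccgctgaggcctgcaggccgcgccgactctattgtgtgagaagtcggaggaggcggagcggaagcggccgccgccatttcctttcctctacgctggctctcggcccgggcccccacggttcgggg
HNRNPC, chr14:21269393-21269692, minus strand: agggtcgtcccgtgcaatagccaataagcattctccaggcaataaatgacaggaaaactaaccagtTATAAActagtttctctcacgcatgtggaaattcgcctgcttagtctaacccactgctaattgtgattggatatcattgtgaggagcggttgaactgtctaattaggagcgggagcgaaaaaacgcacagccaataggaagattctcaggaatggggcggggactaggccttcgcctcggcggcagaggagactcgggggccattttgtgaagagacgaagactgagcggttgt
PTBP2, chr1:96722388-96722687, plus strand: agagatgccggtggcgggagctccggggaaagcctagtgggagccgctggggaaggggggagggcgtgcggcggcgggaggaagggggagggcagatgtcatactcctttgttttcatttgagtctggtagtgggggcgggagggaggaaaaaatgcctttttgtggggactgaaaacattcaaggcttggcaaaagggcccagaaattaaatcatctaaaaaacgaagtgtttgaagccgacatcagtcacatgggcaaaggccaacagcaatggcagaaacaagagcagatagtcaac
In HNRNPR the palindrome starts 70 bases before the transcription start. HNRNPH1 has several annotated starts, and the palindrome lies 95 bases before the one whose window is shown. The other HNRNPH1 windows did not hold it. TATAAA on either strand occurred for 6 members (HNRNPC, HNRNPAB, HNRNPD, SRSF3, SRSF7 and SRSF11), in 1 window each. This was among 54 member windows, beside 11.5% of all promoters. The median GC content was 64.8% for member windows and 58.7% for all promoters. These matches describe the letters of the windows and say nothing about binding in these cells.

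Pairs of close relatives gave different values in several cases, none of which was tested as a difference between genes. PTBP2 rose at 0.33 beside -0.0082 for PTBP1, and HNRNPH2 fell at -0.17 beside 0.011 for HNRNPH1, and in both pairs the called gene is the scarcer one in TPM. HNRNPDL rose at 0.16 beside 0.053 for HNRNPD, and TRA2A rose at 0.12 beside 0.041 for TRA2B. SRSF5 and SRSF4 rose beside -0.014 for SRSF6. HNRNPL rose at 0.092 while HNRNPLL, at 0.11 with a larger error, did not pass, and HNRNPUL2 fell at -0.21 beside 0.023 for HNRNPUL1. The other pairs set side by side were both short of the threshold, namely SRSF1 and SRSF9, SRSF2 and SRSF8, SRSF3 and SRSF7, SRSF10 and SRSF12, HNRNPA1 and HNRNPA2B1, HNRNPU and HNRNPUL1, and U2AF1 and U2AF2.

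The genes that the SR proteins and hnRNPs work with were counted from lists, in the edgeR fit without offsets alone. None of the list counts was repeated with length and GC offsets, with effective-length offsets or on log2(TPM + 1). Those settings changed the counts of members, and how far they change the lists was not tested. Of 22 tested proteins of the U1 and U2 snRNPs, the particles that mark both ends of an intron, 6 rose (27.3%) and 1 fell (4.55%), beside 12.1% and 11.4% of all genes, with a median log2 fold change of 0.11. SNRPG at 0.42, SNRPA1 at 0.37 and SF3A3 at 0.27 had the smallest p. Of the genes that rose, SF3A3 and SNRPE lie on chromosome 1, where the median log2 fold change over 1574 tested genes was 0.149. The part of this regional difference in their values was not tested. SNRPG, a subunit of the Sm ring, had 107, 110 and 100 CPM in the knockout, against 79.4, 82.7 and 75.3 CPM in the wild type, with no overlap. Of 31 proteins of the tri-snRNP and catalytic spliceosome, 5 rose and 5 fell (16.1% each, near the shares over all genes, median 0.031). They were led by PRPF3 at 0.28, also on chromosome 1, SNRNP200 at -0.16 and SART3 at -0.14. Of 8 minor spliceosome genes 1 rose (12.5%), SNRNP48 at 0.33 (median 0.062), which is also near the share over all genes.

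Of 24 SR-related coactivators, which carry arginine-serine stretches but are not classical SR proteins, 3 rose (12.5%) and 11 fell (45.8%), beside 12.1% and 11.4% of all genes, with a median of -0.064. These shares too were counted without offsets only. SRRM2, a large scaffold of nuclear speckles, had 1032, 1056 and 1037 CPM in the knockout, against 1292, 1289 and 1178 CPM in the wild type (-0.27), and its partner SON lay at -0.23. Neither gene's groups overlapped. U2SURP, a U2-associated SR protein, rose at 0.28. Of 9 tested kinases and import factors of SR proteins 3 rose (33.3%) and 2 fell (22.2%, median -0.011). Those with the smallest p were DYRK1A at -0.32, PRPF4B at -0.20 and CLK2, on chromosome 1, at 0.19. DYRK1A, a kinase of SR proteins, had 86.2, 85.1 and 85.9 CPM in the knockout, against 107, 107 and 108 CPM in the wild type, with no overlap.

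Of 42 tested genes for other splicing regulators 3 rose (7.14%) and 6 fell (14.3%), near the 12.1% and 11.4% of all genes (median -0.036), with CELF1 at -0.32, MBNL2 at 0.51 and RBM17 at -0.35. Of 15 genes of nonsense-mediated decay and the exon junction complex, which act on isoforms with premature stop codons, 2 rose (13.3%) and 5 fell (33.3%), beside the same shares of all genes (median -0.054). UPF1, the helicase at the centre of that decay, had 148, 155 and 158 CPM in the knockout, against 191, 179 and 190 CPM in the wild type (-0.28), with no overlap. MAGOH lay at 0.38 and SMG1, the kinase of UPF1, at -0.24. MAGOH and RBM8A, the genes that rose, both lie on chromosome 1. The groups of MAGOH and SMG1 did not overlap either.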

How the data were processed

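Messenger RNA was sequenced from 3 STAT5B knockout and 3 wild-type HEK293 libraries, grouped by the genotype label. The submitters' processing notes name FastQC, fastp, DRAGEN, Picard and hg38, with neither version nor role. The annotation release, strand setting and read assignment are not given in these sources. Per the file headers, each file deposited by the authors gives a gene's length, effective length, TPM and estimated count. Between 7.12% and 7.64% of the deposited estimated counts were not whole, and all were rounded to whole numbers before testing.

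Names matched 42044 of 60609 identifiers (69.37%). Positions, transcripts and copies came from GENCODE release 29, which shares the build but is not stated to be the authors' release, and the protein-coding class and promoters from RefSeq. Genes were kept by filterByExpr (count of at least 10, total of at least 15) and tested in edgeR 4.0.16 (R 4.3.3) by the quasi-likelihood F test after TMM scaling, with Benjamini-Hochberg adjustment over the 15958 genes kept and a threshold of 0.05. The other 44651 genes were not tested. CPM use TMM-scaled library sizes. Fold changes are knockout over wild type. Libraries within each group were not copies of one another (chi-square per degree of freedom of 2.45 to 7.5), and the biological coefficient of variation was 4.43%. Average lengths, in bases as deposited, were compared with limma 3.58.1 on log2 length. TPM as deposited were used for levels and, as log2(TPM + 1) with a pseudocount of 1, for an alternative.

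Alternatives were DESeq2 1.42.0, limma-voom, RLE scaling, no filter, at least 1 CPM in 3 libraries, effective-length offsets, log2(TPM + 1), a replicate block, a 1.2-fold test and leaving out each library. Added after seeing the data were offsets for length and GC content (splines of 5 degrees of freedom on genes above a mean log2 CPM of 2), summed copies, and for length a mean-count trend in the variance prior and calls of at least 1.05-fold. Scripts were tested on simulated data. Values per library are given for members past the threshold, for the 5 with the highest mean TPM and for U2AF1, and further members were named after their values were seen. From each list up to 3 genes with the smallest p are named. The members and lists were chosen with earlier results of these data known. Some sequences are not reported here.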

Additional observations from a re-analysis of the deposited data

How the results depend on the processing

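Over all genes 3742 passed, and the count moved by over 1.5 times with effective-length offsets (1734), on log2(TPM + 1) (1623) and against a 1.2-fold change (295). Members called higher, 9 in the comparison as reported, numbered 3, 2 and 0 under those settings and 2 with length and GC offsets, and 3 to 13 when 1 library was left out. Without wild-type replicate 1, 3 members were higher and 2 lower, beside 1339 and 1279 of all 16343 genes tested. Without knockout replicate 3, 13 members were higher and 4 lower, beside 1789 and 1786 of all 16329 genes tested. Members called lower, 4 as reported, numbered 2 with effective-length offsets, 0 against a 1.2-fold change, 7 with length and GC offsets, and 2 to 5 when 1 library was left out. With RLE scaling, DESeq2, limma-voom and either filter the members called numbered 8 or 9 higher and 5 lower. Of all genes called under these settings 49.2% to 52.5% were higher. The causes were not tested.

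Deviations from the group means correlated at 0.00375, 0.104 and 0.0415 for same-numbered libraries over 15958 genes. Between libraries of different number they correlated at -0.098 to 0.0519. These values do not settle whether the replicate numbers pair the libraries. With the replicate number as a block 8 members were higher (HNRNPL no longer among them, adjusted p = 0.0601) and 4 lower, 3660 genes passed in all, and average transcript length gave 0 genes in place of 1. When 1 library was left out, 1 to 6 genes passed the length test.

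The STAT5B call did not hold with DESeq2 (-0.14, adjusted p = 0.0759), without a filter (-0.14, 0.062), with effective-length offsets (-0.24, 0.104), on log2(TPM + 1) (-0.30, 0.0844), with the replicate block (-0.14, 0.0554), against a 1.2-fold change (-0.14, 1.0) and with length and GC offsets (-0.12, 0.0786). With 1 library left out its log2 fold change was -0.17 to -0.12, and it passed only without wild-type replicate 2 (adjusted p = 0.0325, against 0.061 to 0.16 without each of the others). An exact two-sided permutation test gave p = 0.1 for it, the smallest that 3 against 3 allows.

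Signs were followed for the called members, the 5 with the highest mean TPM and U2AF1. Among these they turned for 1 called member, TRA2A, and 3 that had not passed. Members outside this group turned too. Among them were U2AF2 (0.015 as reported, -0.074 on log2(TPM + 1)) and HNRNPA0 (-0.051 as reported, 0.074 with length and GC offsets). TRA2A, at 0.12 as reported, was at -0.024 on log2(TPM + 1), and HNRNPA2B1 at -0.0065 with length and GC offsets. HNRNPA1 was at -0.045 on log2(TPM + 1), -0.053 with length and GC offsets and -0.013 without knockout replicate 2. HNRNPH1 was at -0.088 with effective-length offsets, -0.16 on log2(TPM + 1), -0.057 with length and GC offsets and -0.031 to 0.054 when 1 library was left out, the lowest without knockout replicate 2.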

Other observations

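Of the transcripts that neighbour or run through members without being members, HNRNPUL2-BSCL2, a readthrough gene that overlaps HNRNPUL2, had 81.9, 81.9 and 85.3 CPM in the knockout, against 84.5, 94.5 and 92.2 CPM in the wild type. The groups overlapped, and its log2 fold change was -0.12 (edgeR adjusted p = 0.0673). Reads in the shared exons of HNRNPUL2 and this gene cannot be told apart. HNRNPD-DT, a transcript that starts beside HNRNPD in the opposite direction, had 2, 5 and 7 counts in the knockout, against 5, 6 and 4 counts in the wild type. HNRNPK-AS1, antisense to HNRNPK, had 0 counts in every library.

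NEFM, a neurofilament mRNA used above to check the cell line, stood at 103, 106 and 90 TPM in the knockout, against 222, 238 and 231 TPM in the wild type, and the groups did not overlap. The gene symbol MATR3, a regulator in the list of other splicing factors, belongs to 2 identifiers in the files. The one that the list counted passed on the lower side. It had 70.6, 85.4 and 113 CPM in the knockout, against 163, 115 and 103 CPM in the wild type, and those groups overlapped. The other was not counted in the list, and how reads divide between the 2 was not tested.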
